A study of Homo sapiens with 4 samples.

Results

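The cytosolic ribosomal proteins are the RPS and RPL families, the proteins that build the small and the large ribosomal subunit together with ribosomal RNA. Genes were taken by symbol, RPL or RPS with a number and RPLP0, RPLP1, RPLP2 and RPSA, without pseudogenes and without the Y-linked copies of RPS4X, which gave 84 of 24462 genes. Of these, 31 encode small subunit proteins, 46 encode large subunit proteins and 7 are paralogs (RPL3L, RPL7L1, RPL10L, RPL22L1, RPL26L1, RPL39L and RPS27L), second copies of a ribosomal protein gene elsewhere in the genome. The libraries, 4 in number and 1 per condition, came from HepG2, a line grown from a human liver carcinoma, and all were made from the same line in the same medium with fetal bovine serum. The conditions were DMSO (the solvent), PD0332991 (an inhibitor of the kinases CDK4 and CDK6), scrambled siRNA oligos, and CDK4/6 KD, in which the cells were transfected with siRNA oligos against CDK4 and CDK6. Neither the dose and duration of PD0332991 nor the interval between transfection and harvest is given in the sources used here.

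The QuantSeq 3′ libraries held 8983848 to 11176880 reads on genes, and levels are given as CPM, reads scaled to a common library size, after TMM correction, with factors of 0.957 to 1.03. A transcript gives reads only near its 3′ end, so a level stands for reads per transcript and was not divided by gene length. With 1 library in each condition, differences could not be checked against replicates and carry no p-value. Each fold change has a 95% Clopper-Pearson interval, taken from how the reads of that gene divide between both libraries, which covers counting error only and compares libraries rather than conditions. No molecular identifiers are named, so PCR copies may be among the reads. All 10 hepatocyte markers had at least 10 reads in every library. Their summed level differed, with 17440 CPM in DMSO, 20031 after PD0332991, 17790 with scrambled siRNA and 22299 in CDK4/6 KD. The targeted genes were lower in CDK4/6 KD, with 71.9 CPM of CDK4 against 354 in scrambled siRNA and 129 CPM of CDK6 against 536.

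Ribosomal protein mRNAs are among the most abundant in a growing cell, and their proteins are needed in nearly equal numbers, since a ribosome holds a single copy of most of them. Many of these mRNAs begin with a C followed by a run of pyrimidines, the 5′ terminal oligopyrimidine (TOP) motif, through which the mTORC1 kinase and the protein LARP1 control their translation and stability. Proteins not built into a ribosome are usually degraded, and free RPL5 and RPL11, bound to a small ribosomal RNA, can block MDM2, the ligase that marks p53 for degradation.

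The motif was looked for at the annotated transcript starts of RefSeq on GRCh38.p14, as a C at the start followed by 4 bases that are each C or T, on the strand of the gene. A start was listed for 67 of the 84 genes. The motif was at a start of 46 of 62 ribosomal protein genes without the paralogs (74.2%), of 1 of 5 paralogs (20.0%), of 6 of 69 mitochondrial ribosomal protein genes (8.7%) and of 1404 of all 27305 genes (5.14%). The windows listed here show 2 genes whose mRNAs lay among the furthest above DMSO after PD0332991 (RPS14 and RPL39), 2 whose mRNAs were lower in CDK4/6 KD (RPL3 and RPS26), and 2 paralogs beside their parent genes. Each window runs 5′ to 3′ over 30 bases, the annotated start is base 16, and capitals mark an unbroken run of at least 5 bases, each C or T, that begins with a C at the start.
RPS14 (chr5:150449725-150449754, minus strand): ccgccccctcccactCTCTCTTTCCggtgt
RPL39 (chrX:119791616-119791645, minus strand): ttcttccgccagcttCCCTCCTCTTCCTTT
RPL3 (chr22:39319609-39319638, minus strand): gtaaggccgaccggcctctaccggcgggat
RPS26 (chr12:56041903-56041932, plus strand): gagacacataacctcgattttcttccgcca
RPS27 (chr1:153990747-153990776, plus strand): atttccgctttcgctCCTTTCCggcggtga
RPS27L (chr15:63157463-63157492, minus strand): aagttgatgccgagcgcagatcgcttgcag
RPL22 (chr1:6199581-6199610, minus strand): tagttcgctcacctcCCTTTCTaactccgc
RPL22L1 (chr3:170870181-170870210, minus strand): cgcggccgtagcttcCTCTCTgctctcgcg
Of the paralogs with a listed start, RPL22L1 alone had the run, and RPS27L lacked it where its parent RPS27 had it. The windows shown do not stand for a link between motif and direction of change. RPS4X, not shown, lacked the run and was 1.39-fold higher after PD0332991. RPL12, also not shown, had a run of 6 bases and was at 0.716 in CDK4/6 KD. Medians with and without the motif are given below. A start in the annotation need not be the one used in HepG2.

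Ribosomal protein genes took 9.69% of all reads in the DMSO library, 12.0% after PD0332991, 9.61% with scrambled siRNA and 9.22% in CDK4/6 KD, and the 95% Wilson interval reached at most 0.0213 percentage points to either side. The PD0332991 library stood above the other 3, and the CDK4/6 KD library was the lowest. Both subunits took part: the small subunit genes held 4.88%, 6.09%, 4.99% and 4.7% of reads in the same order, and the large subunit genes held 4.77%, 5.88%, 4.57% and 4.5%. RPS27A, which encodes a ribosomal protein fused to ubiquitin, was the most counted gene of the family. Without it the shares were 8.91%, 10.9%, 8.72% and 8.46%, in the same order of libraries. In bulk RNA a change in the make-up of the culture and a change in RNA per cell cannot be told apart.

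**Figure D1:**
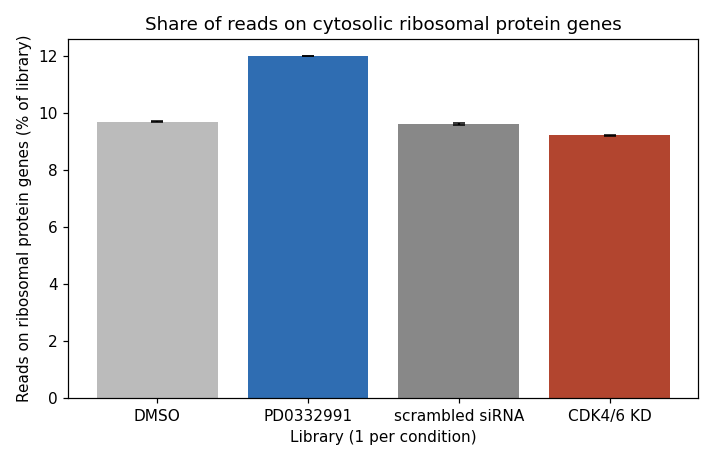
Share of all reads that fell on the cytosolic ribosomal protein genes (vertical axis, percent) in each of the 4 libraries, with 95% Wilson intervals as bars. The PD0332991 library is highest at 12.0%, and the other 3 lie between 9.22% and 9.69%.

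Among the 77 genes without the paralogs, mean levels ran from 6.41 CPM for RPL15 to 8778 CPM for RPS27A, with a median of 951. The level was highest in PD0332991 for 68 of the 77, in DMSO for 7, in scrambled siRNA for 2 and in CDK4/6 KD for 0. It was lowest in CDK4/6 KD for 59, in scrambled siRNA for 12, in DMSO for 6 and in PD0332991 for 0. Over all 13961 genes that reached 10 reads in some library, PD0332991 was the highest for 26.7% and CDK4/6 KD the lowest for 23.8%. With total counts and with quantile normalization PD0332991 was the highest for 70 and 60 of the 77, but CDK4/6 KD was the lowest for 35 and 34.

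By their intervals, 61 of the 77 were higher after PD0332991 than in either control library, which held for 17.7% of all genes tested and for 24.6% of those averaging 1000 reads or more over the 4 libraries. This count was 64 with total counts and 57 with quantile normalization. CDK4/6 KD was lower than both controls for 48, beside 19.6% of all genes and 31.9% of the genes of 1000 reads or more, but for 24 with total counts and 26 with quantile normalization. It was higher than both for 2, RPS19 and RPL35A, a pair named after their values were seen, beside 17.2% and 23.4%, and for 5 and 7 with the other scalings. Both comparisons of a perturbed library share that library.

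Exposure to PD0332991 addressed what blocking the kinases does to expression. Most ribosomal protein mRNAs were modestly higher after it. Of the 81 genes that reached 10 reads in DMSO or PD0332991, 69 lay above a log2 fold change of 0 and 12 below, and the median was 0.241, a fold change of 1.18, while the median of all 13443 genes tested was 0.018. The interval lay above 1 for 65 genes (80.2%) and below 1 for 7 (8.64%), where 28.1% and 28.6% of all genes tested did so. Among well-counted genes, those averaging 1000 reads or more over the libraries compared, the shares were 39.5% and 42.2%. Such genes have narrow intervals like most of the family. Sizes were small: 0 genes were 1.5-fold higher or more, where 16.8% of all genes were, and 2, RPL15 and RPL22L1, were 1.5-fold lower or more, where 15.1% were. A level at least 25% higher was seen for 25 genes and a level at least 20% lower for 3, beside 28.8% and 27.0% of all genes. At 2-fold the counts were 0 higher and 1 lower, beside 7.49% and 7.06%.

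RPL32, a large subunit protein, had 1834 CPM in DMSO, 2685 after PD0332991, 2237 with scrambled siRNA and 1990 in CDK4/6 KD. Its fold change after PD0332991 was 1.46 (interval 1.44 to 1.49), the firmest higher value of the family. RPS14, a protein of the platform of the small subunit, had 1553, 2243, 1941 and 1718 CPM, a fold change of 1.44 (1.41 to 1.48). For both genes the scrambled siRNA library also lay above DMSO, so that PD0332991 was 1.2-fold and 1.16-fold above scrambled siRNA.

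RPL39, a small protein at the exit tunnel of the large subunit, had 686, 974, 724 and 681 CPM and a fold change of 1.42 (1.37 to 1.47). RPL12, a protein at the base of the stalk, had 240, 343, 272 and 195 CPM and a fold change of 1.43 (1.35 to 1.51). RPS4X, the X-linked small subunit protein, had 1900, 2643, 2621 and 1949 CPM and a fold change of 1.39 (1.36 to 1.42). RPL39 and RPL12 stood highest after PD0332991 with the controls well below, whereas RPS4X was as high with scrambled siRNA as after PD0332991.

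The 3 P stalk proteins, which recruit the elongation factors to the ribosome, stood together. RPLP0 had 2223 CPM in DMSO, 2933 after PD0332991, 2210 with scrambled siRNA and 2123 in CDK4/6 KD. RPLP1 had 2491, 3333, 2706 and 2461 CPM, and RPLP2 had 1094, 1500, 1267 and 1089. The PD0332991 library was the highest for each, with fold changes of 1.32 (1.3 to 1.34), 1.34 (1.31 to 1.36) and 1.37 (1.34 to 1.41). Smaller differences were seen for the pair that binds MDM2. RPL5 had 1767, 1984, 1622 and 1503 CPM and a fold change of 1.12 (1.1 to 1.15), and RPL11 had 659, 699, 571 and 581 CPM and a fold change of 1.06 (1.02 to 1.1).

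The 5 most counted genes were RPS27A, RPS3, RPL27A, RPL26 and RPS29. RPS27A had 7841 CPM in DMSO, 10569 after PD0332991, 9369 with scrambled siRNA and 7331 in CDK4/6 KD, a fold change of 1.35 (1.33 to 1.36) after PD0332991. RPL27A was 1.36-fold (1.34 to 1.38) higher, RPL26 1.23-fold, RPS29 1.16-fold (1.14 to 1.18) and RPS3, which lines the mRNA entry channel, 1.11-fold (1.1 to 1.13).

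Lower levels after PD0332991 were few among the 77 genes without the paralogs: the interval lay below 1 for RPL15, RPL30, RPL17, RPL23A and RPS26 and above 1 for 65. RPL15 had 110 reads in DMSO, 40 after PD0332991, 37 with scrambled siRNA and 65 in CDK4/6 KD, or 12.0, 4.39, 3.46 and 5.74 CPM. The DMSO library stood apart from the other 3, and the fold change was 0.368 (0.248 to 0.528) after PD0332991 and 1.65 (1.09 to 2.56) in CDK4/6 KD. It was by far the least counted of the 77, so its values rest on few reads. RPL30 was 0.92-fold (0.897 to 0.944), RPL17 0.894-fold (0.842 to 0.948), RPL23A 0.925-fold (0.889 to 0.963) and RPS26 0.867-fold (0.755 to 0.994) the DMSO level.

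**Figure D2:**
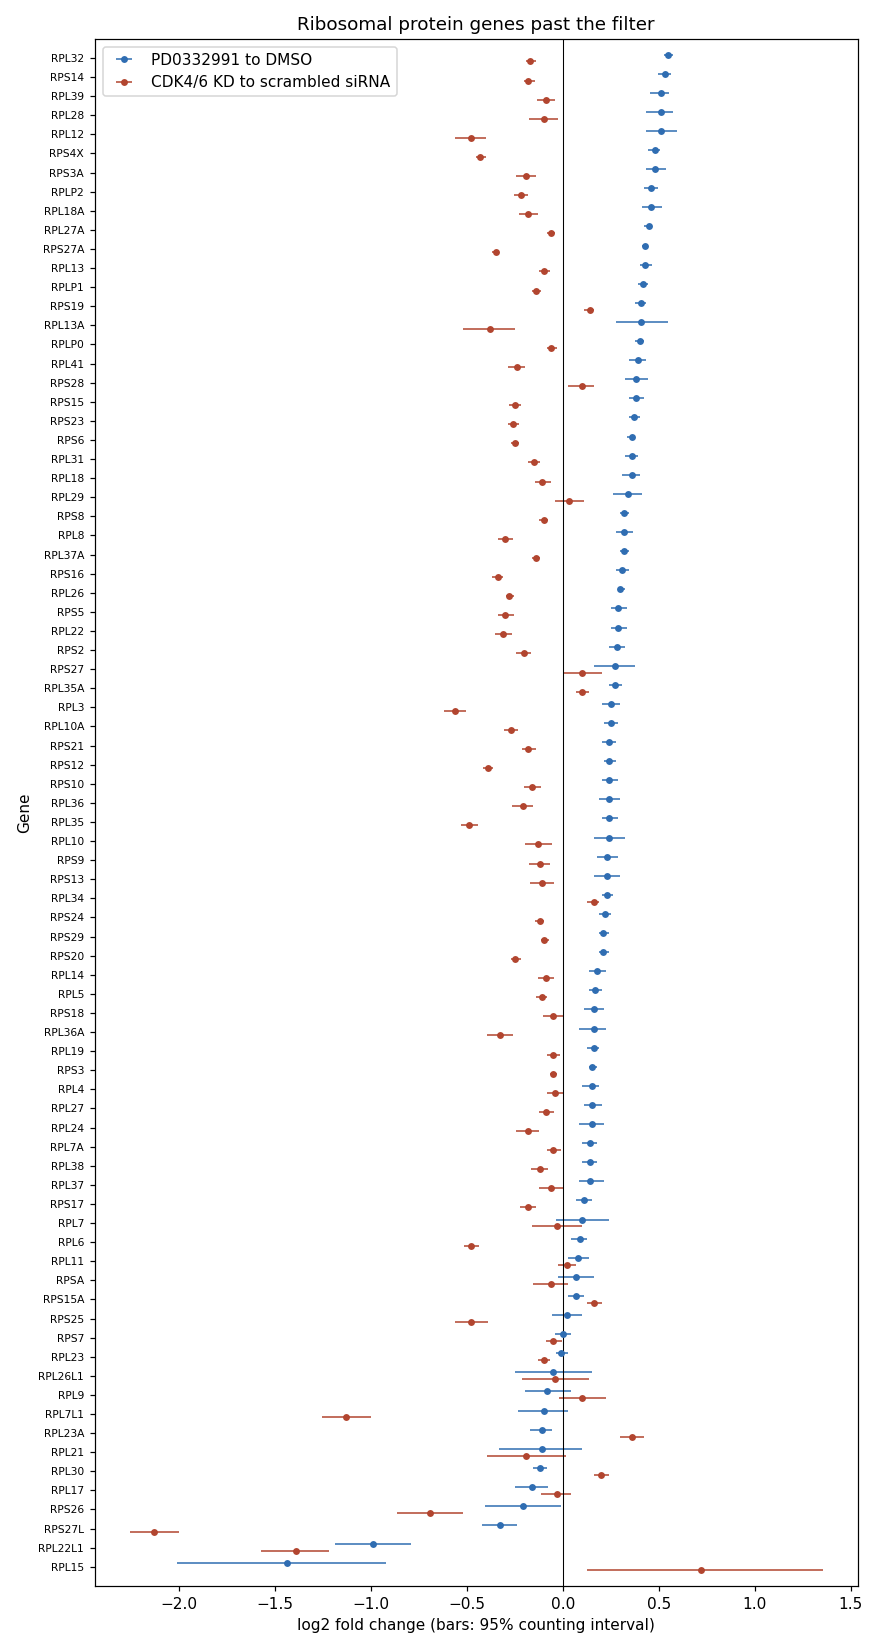
Log2 fold changes (horizontal axis) of the ribosomal protein genes past the read filter, apart from 1 that is not shown, with PD0332991 to DMSO in blue and CDK4/6 KD to scrambled siRNA in red, ordered by the blue values, and 95% counting intervals as bars. Most blue points lie above 0, and red points lie below 0 for 68 genes, with RPS27L, RPL22L1 and RPL7L1 far to the left in red.

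Markers of other cell types also differed between these libraries. The summed level of 9 keratinocyte markers was 203 CPM in DMSO, 200 after PD0332991, 362 with scrambled siRNA and 203 in CDK4/6 KD, with 2, 6, 6 and 5 of the markers at 10 reads or more. Most of that sum was SFN, with 134, 61.8, 305 and 102 CPM, and KRT10, with 66.3, 77.0, 48.0 and 87.1. SFN was lowest after PD0332991. KRT5 had 2, 113, 13 and 43 reads and KRT14 had 9, 249, 31 and 74, highest after PD0332991, whereas TP63 and DSG3 had at most 2 reads in any library, with TP63 at 0 in scrambled siRNA, DSG3 at 0 in CDK4/6 KD and KRT1 at 0 in DMSO. The 6 fibroblast markers summed to 48.3, 78.9, 8.6 and 22.7 CPM, with DCN at 0 in DMSO and scrambled siRNA and LUM at 0 in scrambled siRNA and CDK4/6 KD. The 5 leukocyte markers, mostly LYZ, summed to 753, 518, 1040 and 510 CPM, with CD3E at 0 in every library and PTPRC at 0 in all but DMSO. Their part in the ribosomal protein differences was not tested.

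Knockdown addressed the same question by lowering the kinases themselves. Most ribosomal protein mRNAs were slightly lower in CDK4/6 KD than with scrambled siRNA under TMM scaling, and 3 paralogs were much lower. Of 81 genes, 68 lay below a log2 fold change of 0 and 13 above, and the median was -0.126, a fold change of 0.916, beside a median of -0.004 over all 13617 genes tested. With library totals as the only scaling the family median was -0.022, beside 0.1 over all genes. With quantile normalization it was -0.019, beside 0.019. Its distance from 0 thus rests on the scaling. The family median stayed below that of all genes each time, but by less with quantile normalization. The interval lay below 1 for 61 genes (75.3%) and above 1 for 10 (12.3%), where 31.9% and 30.0% of all genes did so, and 48.2% and 33.6% of the well-counted genes. With total counts 39 lay below and 21 above, and with quantile normalization 35 below and 29 above. With total counts the median of all genes was itself 0.1 higher than 0. At 1.5-fold, 4 genes were lower (RPS27L, RPL22L1, RPL7L1 and RPS26), where 17.4% of all genes were, and 1 was higher (RPL15), where 19.4% were. Levels at least 20% lower were seen for 15 genes and at least 25% higher for 2, beside 29.5% and 30.4% of all genes. At 2-fold 3 were lower and 0 higher, beside 7.62% and 9.19%.

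Apart from the paralogs, the firmest lower values were those of RPS26, RPL3, RPL35, RPL6 and RPS4X. RPL3, which helps to shape the peptidyl transferase centre, had 612 CPM in DMSO, 727 after PD0332991, 557 with scrambled siRNA and 377 in CDK4/6 KD, a fold change of 0.678 (0.652 to 0.705). RPS26, a protein at the mRNA exit channel, had 49.8, 43.2, 65.7 and 40.6 CPM, a fold change of 0.619 (0.549 to 0.697). CDK4/6 KD was the lowest library for both genes, and for RPS26 scrambled siRNA was the highest.

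RPL35 and RPL6, both of the large subunit, had fold changes of 0.713 (0.692 to 0.735) and 0.719 (0.699 to 0.74), and both also lay below DMSO, at 0.811-fold and 0.808-fold. RPS4X was at 0.744 of scrambled siRNA in CDK4/6 KD and yet at 1.03 of DMSO. RPS25, a small subunit protein used by some viral internal ribosome entry sites, was at 0.718 (0.677 to 0.762) of scrambled siRNA and 0.577 (0.544 to 0.612) of DMSO. RPS27A was at 0.783 (0.775 to 0.79) of scrambled siRNA and 0.935 (0.926 to 0.944) of DMSO. How far each of these stood below a control therefore varied with the control library.

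Of the 14 proteins listed for the head of the small subunit, 12 (85.7%) had intervals below 1 under TMM scaling. For RPS19 and RPS28 they lay above 1, and the median log2 fold change was -0.214. Of all small subunit genes 80.6% lay below 1, so the head was close to its subunit. The share was 31.9% of all genes tested and 48.2% of the well-counted genes. Such counts depend on the scaling, as given above for the family. All 3 P stalk genes lay below 1 against scrambled siRNA, at 0.961 (0.944 to 0.978) for RPLP0, 0.909 (0.895 to 0.925) for RPLP1 and 0.859 (0.839 to 0.881) for RPLP2, but against DMSO the intervals of RPLP1 and RPLP2 held 1. With total counts RPLP0 lay at 0.05 on the log2 scale, the opposite side of 0. RPL5 was at 0.926 (0.907 to 0.946) and RPL11 at 1.02 (0.982 to 1.05). The small subunit genes had a median of -0.175 and the large subunit genes of -0.108.

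Among the genes above 1 in CDK4/6 KD, RPL23A, a docking site for factors at the exit tunnel, had 558 CPM in DMSO, 516 after PD0332991, 352 with scrambled siRNA and 451 in CDK4/6 KD, a fold change of 1.28 (1.23 to 1.34). RPL30 had 1305, 1201, 972 and 1115 CPM, a fold change of 1.15 (1.12 to 1.18). For both genes scrambled siRNA was the lowest library, and CDK4/6 KD was below DMSO, at 0.809-fold and 0.854-fold. RPL34 was at 1.12 (1.09 to 1.14) of scrambled siRNA and at 0.974 of DMSO. RPS19, a small subunit protein whose loss causes Diamond-Blackfan anemia, had 1993, 2646, 1971 and 2176 CPM and was at 1.1 (1.08 to 1.12) of scrambled siRNA and 1.09 (1.07 to 1.11) of DMSO.

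The control libraries themselves differed, since scrambled siRNA against DMSO gave 26 genes above 1, 29 below and 26 with intervals holding 1, where 28.3% and 28.0% of all 13303 genes lay above and below, and 49.6% and 31.9% of the well-counted genes. The median was -0.009, beside 0.009 over all genes. With total counts and quantile normalization 44 and 45 genes lay below 1. The family medians were then -0.074 and -0.098, beside -0.056 and 0.021 over all genes. The near balance of counts around 1 thus holds for TMM and DESeq2 scaling. With total counts the median of all genes also lay below 0, close to that of the family. Genes 1.5-fold lower or more were RPL15 (0.29) and RPL23A (0.631), beside 15.7% of all genes, and 0 were 1.5-fold higher, beside 13.4%. Levels at least 25% higher were seen for 4 genes and at least 20% lower for 3, beside 26.2% and 27.3%, and at 2-fold 0 were higher and 1 lower, beside 5.3% and 6.64%. Intervals holding 1 were thus the minority between libraries in which neither kinase was targeted.

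Genes listed for disease or position were counted in the same way. Of 14 genes mutated in Diamond-Blackfan anemia, an inherited failure of red cell production, 11 lay above 1 and 2 below after PD0332991, and 5 above and 8 below in CDK4/6 KD, with medians of 0.216 and -0.07. All 4 X-linked genes (RPS4X, RPL10, RPL36A and RPL39) lay above 1 after PD0332991 and below 1 in CDK4/6 KD, with medians of 0.359 and -0.228. Of the 77 genes without the paralogs, 84.4% lay above 1 and 6.49% below after PD0332991. In CDK4/6 KD 13.0% lay above and 75.3% below, so the X-linked genes went with most of the family. Over all genes tested the shares were 28.1% and 28.6%, and 30.0% and 31.9%. Against DMSO, RPS4X in CDK4/6 KD was at 1.03 (1.01 to 1.05) and the interval of RPL39 held 1, while RPL10 and RPL36A lay below 1.

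The comparisons of CDK4/6 KD with scrambled siRNA and of PD0332991 with DMSO share no library and can be set side by side. Of the 77 genes, 54 lay below 1 in CDK4/6 KD and above 1 after PD0332991, as 6.57% of all 13099 genes tested in both did and 14.3% of those averaging 1000 reads or more over the 4 libraries. The count was 34 with total counts and 28 with quantile normalization. Above 1 in both were 7, among them RPS19, RPS28, RPL34 and RPL35A, beside 11.8% and 16.6%, and this count was 16 and 22 with the other scalings. Below 1 in both was RPS26, beside 14.2% and 25.1%. The opposite pattern, above 1 in CDK4/6 KD and below 1 after PD0332991, was seen for 3 (RPL15, RPL23A and RPL30), beside 6.37% and 11.0%. The remainder held 1 in at least 1 comparison. The 77 genes share libraries and scaling and are not independent replicates. Across them, Spearman's rho of the log2 fold changes was -0.32 and Pearson's r was -0.46. For the 72 that averaged 1000 reads or more over the 4 libraries, these were -0.35 and -0.32. The log2 fold change after PD0332991 had a rho of 0.34 with the log2 level, and that of CDK4/6 KD had a rho of -0.08.

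**Figure D3:**
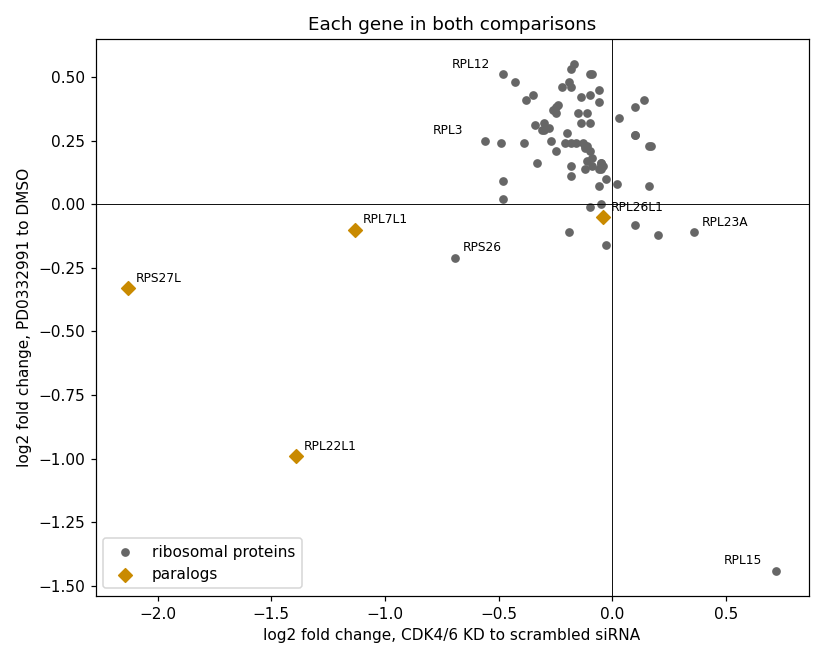
Log2 fold change of each of the 81 genes in CDK4/6 KD against scrambled siRNA (horizontal) and after PD0332991 against DMSO (vertical), with paralogs as diamonds. Most points lie in the upper left, the 4 paralogs lie below 0 on both axes, and RPL15 lies far from the other genes at the lower right, where RPL23A and RPL30 also fall.

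A gene's share of the reads on the family does not depend on library scaling. Compared with the rest of the family, 36 of the 77 genes were higher in CDK4/6 KD than with scrambled siRNA, 24 were lower and 17 had intervals holding 1, with ratios from 0.691 for RPS26 to 1.86 for RPL15. After PD0332991, 24 were higher, 39 lower and 14 held 1, with ratios from 0.297 for RPL15 to 1.2. Between the control libraries 21 were higher, 41 lower and 15 held 1. RPS27A made up 8.14% of the family's reads in DMSO, 8.95% after PD0332991, 9.38% with scrambled siRNA and 8.2% in CDK4/6 KD.

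The paralogs differed from their parent genes. RPS27L, a paralog of RPS27 that p53 is known to induce, lies at chr15:63125872-63158021 on the minus strand in GENCODE 29 (GRCh38). It had 2164 reads in DMSO, 1716 after PD0332991, 2451 with scrambled siRNA and 593 in CDK4/6 KD, or 237, 188, 229 and 52.4 CPM. The CDK4/6 KD library was far below the other 3, with a fold change of 0.229 (0.209 to 0.25), and PD0332991 gave 0.796 (0.746 to 0.848). RPS27 had 155, 187, 135 and 146 CPM. RPS27L therefore supplied 60.5%, 50.2%, 62.8% and 26.5% of the reads of the pair, a share that library scaling cannot move.

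RPL22L1, a paralog that can stand in for RPL22 in the large subunit, lies at chr3:170864875-170870483 on the minus strand. It had 631, 317, 907 and 365 reads, or 69.1, 34.8, 84.8 and 32.2 CPM, beside 855, 1048, 868 and 701 CPM of RPL22. Both perturbed libraries lay below both controls, with fold changes of 0.381 (0.336 to 0.43) in CDK4/6 KD and 0.505 (0.439 to 0.578) after PD0332991. RPL22L1 supplied 7.48%, 3.22%, 8.89% and 4.4% of the reads of the pair.

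RPL7L1, a protein of ribosome assembly related to RPL7, lies at chr6:42879618-42889925 on the plus strand. It had 105, 97.6, 147 and 67.2 CPM, with a fold change of 0.458 (0.419 to 0.5) in CDK4/6 KD and 0.931 (0.849 to 1.02) after PD0332991. RPL7 had 95.9, 103, 91.0 and 89.0 CPM, so RPL7L1 supplied 52.2%, 48.7%, 61.7% and 43.0% of the reads of that pair. The scrambled siRNA library was the highest, 1.4-fold above DMSO, and CDK4/6 KD was at 0.641 of DMSO. RPL26L1 differed little, with 44.8, 43.3, 49.7 and 48.5 CPM and fold changes of 0.976 (0.864 to 1.1) and 0.967 (0.84 to 1.11). The other 3 paralogs were near the floor of counting: RPL39L had 4, 5, 3 and 6 reads, RPL3L 2, 7, 0 and 4, and RPL10L 0, 0, 3 and 0, and they were left out of fold changes.

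**Figure D4:**
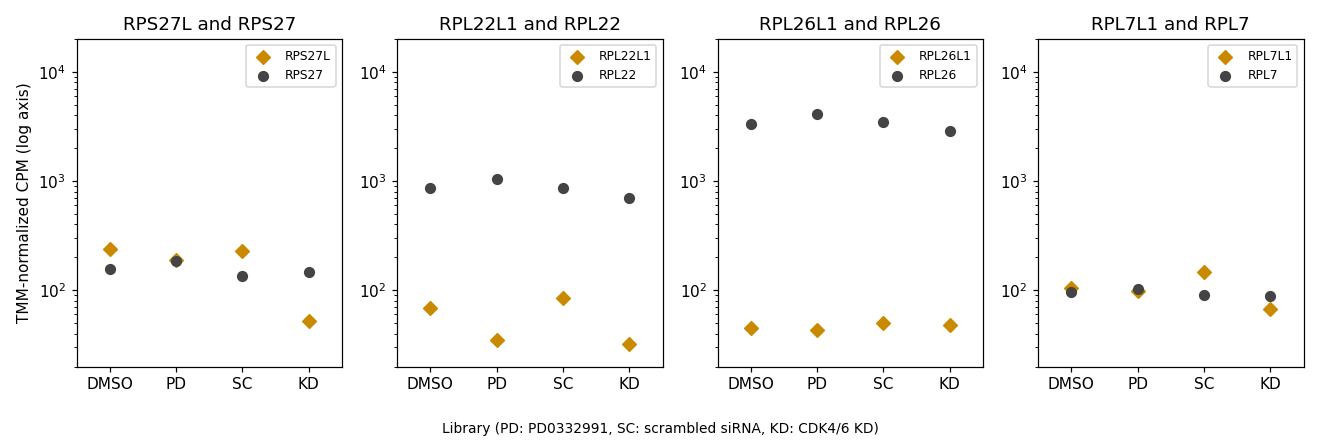
TMM-normalized CPM (logarithmic vertical axis) of 4 paralogs (diamonds) and their parent genes (circles) in each library, with 1 value per library. RPS27L has 229 CPM with scrambled siRNA and 52.4 in CDK4/6 KD while RPS27 has 135 and 146, and RPL22L1 is lower in both perturbed libraries.

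The symbol rule leaves out FAU and RPL36AL, which also encode cytosolic ribosomal proteins. FAU, which encodes a ubiquitin-like fusion of a small subunit protein, had 1558 CPM in DMSO, 1828 after PD0332991, 1849 with scrambled siRNA and 1641 in CDK4/6 KD. Its fold changes were 1.17 after PD0332991 and 0.887 in CDK4/6 KD, the directions of most of the family. RPL36AL, a paralog of RPL36A, had 263, 234, 329 and 268 CPM, and fold changes of 0.889 and 0.814.

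Other genes of the translation machinery were counted in lists. Each list in this and the next paragraph stands beside all genes tested. Of those, 28.1% lay above 1 and 28.6% below after PD0332991, and 30.0% above and 31.9% below in CDK4/6 KD. Of 18 further TOP mRNA genes, mostly elongation and initiation factors, 13 (72.2%) lay above 1 and 2 (11.1%) below after PD0332991. EEF2 was at 1.55, TPT1 at 1.44 and EEF1G at 1.42, and the list median was 0.187. In CDK4/6 KD, 6 lay above and 6 below (33.3% each), near the shares of all genes, with a median of -0.009. NPM1 was at 0.567 and EEF1A1 at 1.13 of scrambled siRNA, and at 0.711 and 0.872 of DMSO. Of 73 ribosome biogenesis and RNA polymerase I genes tested, 63 (86.3%) lay below 1 and 2 (2.74%) above in CDK4/6 KD with a median of -0.599. After PD0332991, 49 (67.1%) lay below and 7 (9.59%) above with a median of -0.383. DKC1, NOP2 and NAT10, which modify ribosomal RNA, were at 0.45, 0.443 and 0.458 in CDK4/6 KD, and TCOF1, UTP20 and NOP56 were at 0.314, 0.471 and 0.518 after PD0332991. The medians of the ribosomal proteins and the assembly factors thus lay on opposite sides of 0 after PD0332991. In CDK4/6 KD both lay below 0 under TMM scaling. The ribosomal protein median there was -0.022 with total counts and -0.019 with quantile normalization, beside 0.1 and 0.019 over all genes. These scalings were not applied to the biogenesis list, though total counts shift all genes of a comparison almost alike.

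Of 7 ribosomal protein chaperones, which hold single proteins until assembly, 4 (57.1%) lay below 1 and 1 (14.3%) above in CDK4/6 KD. After PD0332991, 6 (85.7%) lay below and 0 above. GRWD1 was at 0.62 in CDK4/6 KD and 0.599 after PD0332991. Of 77 mitochondrial ribosomal protein genes, which serve the separate ribosome of mitochondria, 41 (53.2%) lay below and 9 (11.7%) above in CDK4/6 KD with a median of -0.188. After PD0332991, 45 (58.4%) lay below and 13 (16.9%) above with a median of -0.271. The cytosolic and mitochondrial families thus had medians of opposite sign after PD0332991. Of 16 regulators of mTORC1 and MYC, 10 (62.5%) lay above 1 and 2 (12.5%) below in CDK4/6 KD. RPTOR was at 1.98, DDIT4 at 1.68 and AKT1 at 1.72 of scrambled siRNA, but at 0.959, 4.64 and 0.857 of DMSO. After PD0332991, 6 (37.5%) lay above and 5 (31.2%) below, near the shares of all genes. DDIT4 was at 2.87, SESN2 at 1.91 and EIF4EBP2 at 1.73 of DMSO, and at 1.04, 1.18 and 2.1 of scrambled siRNA. mRNA levels of these regulators do not measure kinase activity.

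**Figure D5:**
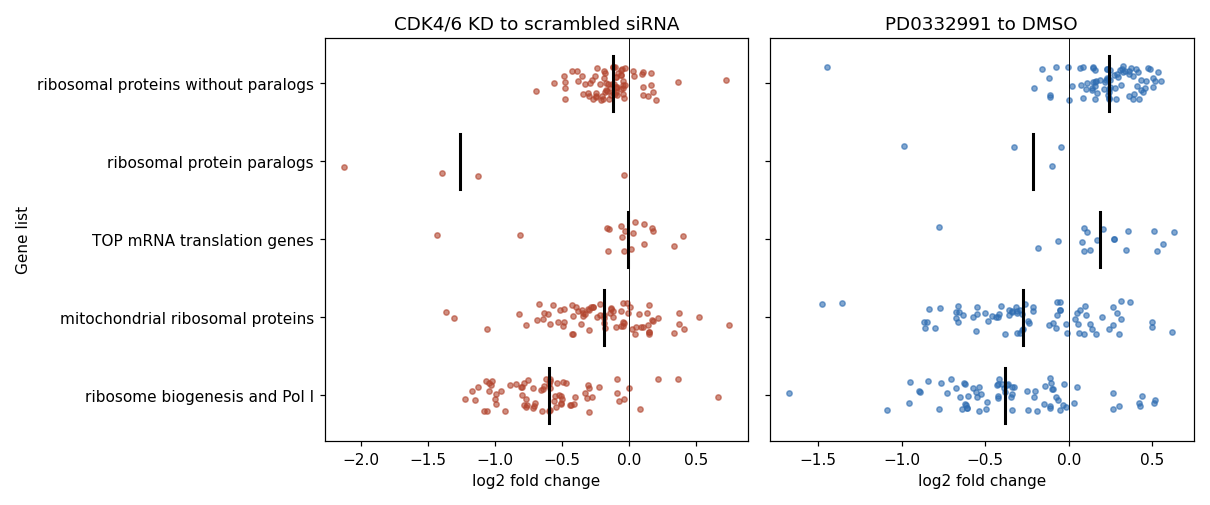
Log2 fold change (horizontal axis) of every tested gene of 5 lists in CDK4/6 KD against scrambled siRNA (left) and PD0332991 against DMSO (right), with 1 point per gene and black bars at list medians. The ribosomal protein median lies at 0.242 after PD0332991 without the paralogs, above the biogenesis median of -0.383.

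Within the 62 genes with a listed start, the 46 with the TOP motif had a median log2 fold change of 0.28 after PD0332991 and the 16 without it 0.16. In CDK4/6 KD the medians were -0.14 and -0.1. The genes of either kind overlapped widely, from -0.11 to 0.53 with the motif and from -1.44 to 0.55 without it after PD0332991, with RPL15 at the low end of the latter.

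Ribosomal protein genes have many processed pseudogenes, near-identical copies to which reads can be assigned, and for several genes the deposited rows hold much of the sequence there. The 31 named pseudogene rows took 0.159% of reads in DMSO, 0.198% after PD0332991, 0.154% with scrambled siRNA and 0.149% in CDK4/6 KD. Pseudogene rows held 90.1% to 91.5% of the reads of RPL13A and its copies, 49.8% to 52.7% for RPL21, 47.3% to 52.9% for RPS26 and 53.0% to 54.4% for RPSA, so levels of these 4 genes are uncertain. For RPL23A the share was 5.33% in DMSO, 5.83% after PD0332991, 9.8% with scrambled siRNA and 6.86% in CDK4/6 KD, highest in the library where RPL23A was lowest. For RPS14 it was 16.3%, 13.0%, 13.0% and 13.9% in the same order, also highest where RPS14 was lowest. For RPS18 it was 8.44%, 8.06%, 7.96% and 7.11%, lowest where RPS18 was lowest. GENCODE 29 names 91 pseudogenes of RPL23A, 74 of RPSA, 66 of RPL21 and 30 of RPS26, and 0 of RPS27L, RPL22L1 and RPL7L1. How the authors' counting treated reads that fit several places is not given in the sources used here, and its part in the values was not tested.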

How the data were processed

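Total RNA of HepG2 cells was made into QuantSeq 3′ mRNA libraries, 1 for each of the 4 conditions. The authors deposited unscaled counts of reads for each symbol, without normalization and with libraries separate. The submitters' processing notes name Bowtie2, edgeR and hg19 with no role or version, and the counter, the annotation and the handling of strand are not given in the sources used here. Each table lists 25737 entries, and the 286 symbols with repeated entries were each summed. Conditions came from the sample labels.

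Library sizes were corrected with TMM (edgeR 4.0.16, R 4.3.3) over all genes. For fold changes 0.5 reads, adjusted for library size, were added to each count. A gene was tested if the library of either side held 10 reads, and every list was read from the table of all genes. A count of 3 reads was taken as the floor. Intervals were computed with scipy 1.17.1. The quasi-likelihood test of edgeR needs replicates and was not run. The Y-linked copies of RPS4X were left out by rule, and some genes that the rule on names would give are not reported here.

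The members, the gene lists and the alternatives were chosen with earlier results of these data known. Named genes were, in each main comparison, the 5 members with the firmest lower and the 5 with the firmest higher value (interval end nearest to 1, at least 50 reads in either library), the 5 members with most reads, all P stalk, RPL5 and RPL11, paralog genes with FAU and RPL36AL, and up to 3 genes per other list in the direction of its median. RPS25, RPS19, RPL35A and genes named to fill a count of 7 or fewer, and NPM1, EEF1A1, SFN and KRT10, were picked with their values in view. Alternatives comprised DESeq2 1.42.0 size factors, total counts, quantile normalization (limma 3.58.1), TMM without the family, other filters, pseudocounts and thresholds, the control of the other arm, and, for repeated symbols, only the entry with most reads. Members under a mean of 1000 reads were left out as an alternative added after seeing the data. Start sequences come from RefSeq on GRCh38.p14, and gene positions from GENCODE 29 on GRCh38, which is not the build of the deposited counts. The procedure was tested on simulated data that held counting error only. That test cannot show how the intervals behave when cultures differ.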

Additional observations from a re-analysis of the deposited data

Results flagged for a closer look

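Of the 77 ribosomal protein genes without the paralogs, 54 had intervals below 1 in CDK4/6 KD and above 1 after PD0332991, and 3 (RPL15, RPL23A and RPL30) had the opposite pattern, where 6.57% and 6.37% of all genes tested in both comparisons did so. The count of 54 depends on the scaling and was 34 with total counts and 28 with quantile normalization. They were singled out because the 2 ways of perturbing CDK4/6 gave opposite directions. With 1 library per condition the difference between the comparisons was not tested.

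Rows outside the family's rule also differed between libraries, and only those higher than their control were flagged. Named ribosomal protein pseudogenes took 0.198% of reads after PD0332991, above the 0.159% of DMSO. The read-through RPL17-C18orf32, listed as a gene of its own, had 296 reads in DMSO, 405 after PD0332991, 365 with scrambled siRNA and 656 in CDK4/6 KD, fold changes of 1.7 (1.49 to 1.94) in CDK4/6 KD and 1.37 (1.18 to 1.6) after PD0332991, while RPL17 itself was at 0.977 (0.924 to 1.03) and 0.894 (0.842 to 0.948). The read-through RPL36A-HNRNPH2 was at 1.16 (1.05 to 1.29) after PD0332991 and 0.809 in CDK4/6 KD. RPL36A itself was close, at 1.12 and 0.796. The read-through RPS10-NUDT3, not flagged, was at 0.774 (0.668 to 0.895) after PD0332991 and 0.927 (0.812 to 1.06) in CDK4/6 KD. Over all genes tested, 28.1% lay above 1 and 28.6% below after PD0332991, and 30.0% and 31.9% in CDK4/6 KD.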

How the results depend on the processing

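No paired analysis was possible because each group has 1 library, and no library could be left out for the same reason. DESeq2 size factors, TMM without the family, a filter of 50 reads, a pseudocount of 5 reads and the most counted entry kept the medians and the counts within the limits set. In CDK4/6 KD the median was -0.022 with total counts and -0.019 with quantile normalization, beside 0.1 and 0.019 over all genes. Intervals above 1 numbered 21 with total counts, 29 with quantile normalization and 6 against DMSO, and intervals below 1 numbered 39 and 35 with the first 2 of these. Genes past the fold threshold and higher numbered 3 with no filter, 2 at 25% higher, and 0 at 2-fold, against DMSO or without members of few reads. Lower genes numbered 15 at 20% lower and 2 without members of few reads. Calls in both comparisons at once, an alternative added after seeing the data, gave with total counts and quantile normalization 34 and 28 genes lower in CDK4/6 KD and higher after PD0332991, and 16 and 22 higher in both. Genes lower in both numbered 0 with total counts. CDK4/6 KD was lower than both controls for 24 and 26 genes and higher for 5 and 7. After PD0332991 the median was 0.169 with quantile normalization. Higher genes numbered 1 with quantile normalization, 1 with no filter and 25 at 25% higher, and lower genes 1 at 2-fold and 0 without members of few reads, where 4 intervals lay below 1. Between the controls the median was -0.074 with total counts and -0.098 with quantile normalization, with 44 and 45 intervals below 1. The medians of all genes were -0.056 and 0.021. Higher genes numbered 1 with no filter and 4 at 25% higher, and lower genes 1 at 2-fold and 1 without members of few reads. The shares of reads were 10.3%, 12.7%, 10.3% and 9.83% without the 10 most counted other genes, and 9.85%, 12.2%, 9.77% and 9.37% with pseudogene rows added (DMSO, PD0332991, scrambled siRNA, CDK4/6 KD).

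Single genes crossed 0 on the log2 scale as follows. In CDK4/6 KD with total counts, RPL27A was at 0.04, RPL39 at 0.02, RPLP0 at 0.05, RPS29 at 0.01 and RPS3 at 0.05. With quantile normalization, FAU was at 0.1, RPL32 at 0.1, RPL39 at 0.04, RPL5 at 0.14, RPLP0 at 0.22 and RPS14 at 0.09. Against DMSO, FAU was at 0.07, RPL15 at -1.06, RPL23A at -0.31, RPL27A at 0.05, RPL30 at -0.23, RPL32 at 0.12, RPL34 at -0.04, RPL36AL at 0.02, RPS14 at 0.15, RPS29 at 0.01 and RPS4X at 0.04. After PD0332991 with quantile normalization, RPL26 was at 0.0 and RPS3 at -0.07, and against scrambled siRNA FAU was at -0.02, RPL15 at 0.34, RPL23A at 0.55 and RPL30 at 0.31. Between the controls RPL26 was at -0.0 with total counts, and with quantile normalization RPL26 was at -0.01, RPL39 at -0.1, RPS27A at 0.0 and RPS3 at 0.0. Causes were not tested. Intervals cover counting error only, and differences between cultures cannot be told apart from those between conditions.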
